A study of Solanum tuberosum with 2 samples.

Results

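The genes described here are 4 of the 40430 features in the deposited expression table of in vitro potato (Solanum tuberosum L., cv. Desirée). They were taken by identifier, with the names that the study's annotation gives them: photosystem II protein D1 (PGSC0003DMG400004211), photosystem II CP47 chlorophyll apoprotein (PGSC0003DMG400046303), chloroplast ribosomal protein S7 (PGSC0003DMG400038200) and carbonic anhydrase, chloroplastic-like (PGSC0003DMG400006956). The table compares 2 mRNA libraries of wild type plants. The cut library was made from single-node segments with 1 leaf, excised from whole plantlets 4 w old and sampled at 0 h. The uncut library was made from intact plantlets of the same age. RNA of 3 biological replicates was pooled for each of the 2 libraries. The spread between replicates is therefore not known, and no test across genes was run. The labels give leaf as the tissue of both samples, while the study's methods give explants and whole plantlets, so cutting and a difference in organs cannot be told apart. In such bulk RNA, fewer cells of a type and less RNA per cell cannot be told apart either. The study lists these 4 genes because they differed between the cut explants and ultrasonicated explants at 0 h, a comparison that used the same cut library. Their values in the cut library thus took part in their listing, so shares of all genes are not a neutral reference for them.

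Photosystem II is the thylakoid complex that uses light energy to take electrons from water. D1 and D2 form its reaction centre, and CP47 is an inner antenna protein that binds chlorophyll and passes excitation energy to this centre. D1 is damaged by light and is replaced all the time, which makes its plastid gene, psbA, one of the most transcribed genes of green tissue. Ribosomal protein S7 belongs to the small subunit of the plastid ribosome, which translates D1 and CP47. Plants encode D1, CP47, S7 and the large subunit of Rubisco, the carbon-fixing enzyme, in the plastid genome. In contrast, carbonic anhydrase, which interconverts CO2 and bicarbonate, and the light-harvesting chlorophyll a-b binding proteins are encoded in the nucleus and imported. Copies of plastid DNA are also common in plant nuclear chromosomes.

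In the deposited table, 3 of the 4 genes lay on nuclear chromosome 1 of SolTub 3.0: CP47 at 50922609 to 50925485 on the plus strand, S7 at 51065414 to 51065809 on the minus strand and D1 at 53785743 to 53794560 on the plus strand. The carbonic anhydrase-like gene lay on chromosome 2, at 26445716 to 26447338 on the minus strand. None of the 4 overlapped another feature of the table (0 overlaps each). The table lists chromosomes 0 to 12 and holds 0 features on a plastid chromosome, while the RefSeq gene table of SolTub_3.0 lists 141 plastid genes. Reads from plastid transcripts and reads from nuclear copies of the same sequence therefore cannot be told apart for D1, CP47 and S7, and whether the alignment included the plastid genome is not given in the sources used here. The spans differ from those of the plastid genes. The D1 feature covers 8818 bp, 8.30 times the 1062 bp of plastid psbA, and the CP47 feature covers 2877 bp, 1.88 times the 1527 bp of psbB. The S7 feature, at 396 bp, is shorter than plastid rps7, which has 468 bp and 2 copies in the plastid genome. For the carbonic anhydrase-like gene, the best protein match in the study's annotation belongs to RefSeq gene LOC102589374, which spans 7470 bp against 1623 bp here.

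The study designed an RT-qPCR primer pair for the S7 feature, shown because a second feature of the table has the same name. Capitals mark the last 5 bases of each primer, the 3′ end from which it is extended. Whether the primers also match the second feature was not tested.
S7 forward: atcgactcatcaagTTCCC
S7 reverse: agtctcttccttttTGCGT

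Values are given as RPM, the reads of a gene scaled to a library of 1000000 reads, and as log2 differences of RPM, cut minus uncut. The number of reads behind each value was recovered from the deposited log2 RPM. Intervals are 95% intervals for counting error only. The scaling totals were 33850937 reads for the cut and 37955483 reads for the uncut library, while reads on genes came to 60081924 and 67314360, so that pairs may have counted as 2 reads, in which case the intervals are too narrow. A gene was called higher or lower where the log2 difference reached 2 and both libraries together held at least 50 reads.

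D1 had 44622 reads in the cut library, against 28351 reads in the uncut library. These equal 1318 RPM (1306 to 1330) in the cut explants and 747 RPM (738 to 756) in the intact plantlets. The D1 value in cut explants was thus 1.76 times that in intact plantlets, a log2 difference of 0.82 (0.80 to 0.84). CP47 had 3728 reads in the cut and 2200 reads in the uncut library, or 110.1 RPM (106.6 to 113.7) in the cut explants and 58.0 RPM (55.6 to 60.4) in the intact plantlets. Its ratio was 1.90, a log2 difference of 0.93 (0.85 to 1.0). For both photosystem II genes the counting intervals of the libraries lay apart, as they also did for the carbonic anhydrase-like gene.

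The carbonic anhydrase-like gene had nearly the same number of reads in both libraries, 2426 in the cut and 2477 in the uncut library. After correction for the 1.12 times greater depth of the uncut library, these equal 71.7 RPM (68.8 to 74.6) in the cut explants and 65.3 RPM (62.7 to 67.9) in the intact plantlets, a log2 difference of 0.14 (0.05 to 0.22). S7 had 11 reads in each library, so that its 0.325 RPM (0.162 to 0.581) in the cut explants and 0.290 RPM (0.145 to 0.519) in the intact plantlets differ only through the depth. The interval of the S7 difference, -1.18 to 1.51 around 0.17, holds a fall and a rise of more than 2-fold, so no change of S7 was detectable at this depth.

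**Figure D1:**
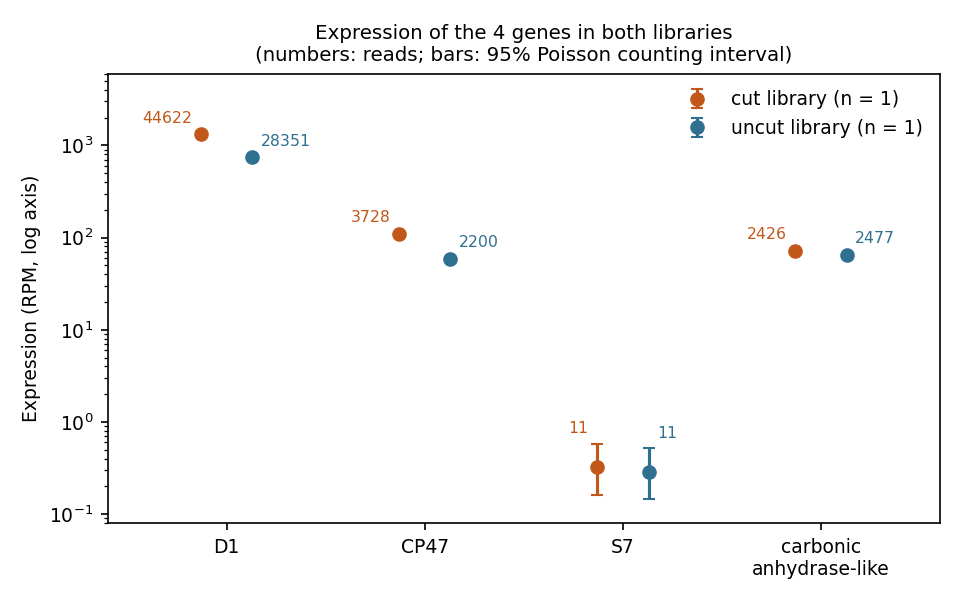
Expression of D1, CP47, S7 and the carbonic anhydrase-like gene in the cut and the uncut library (RPM, log axis), with the number of reads beside each point and 95% Poisson intervals as bars. D1 and CP47 lie higher in the cut library, the carbonic anhydrase-like gene lies close in both, and S7 rests on 11 reads in each library.

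Of the 4 genes, 3 had at least 50 reads, and 0 of these 3 were called higher or lower. Over all 21688 genes with enough reads, 8.25% were called higher and 7.35% lower in the cut explants. Even at a difference of 1, which 16.4% of all genes exceeded upwards and 22.5% downwards, 0 of the 3 genes passed with the deposited values. The difference was above 0 for 3 of the 3 genes, against 36.8% of all genes above 0 and 63.2% below. All genes are not a neutral reference here, because the 3 genes were listed through the cut library. The median difference of all genes was -0.33, so each of the 3 genes lay further above that median than above 0. A larger difference than that of CP47 was found for 17.3% of all genes, a larger one than that of D1 for 18.8% and a larger one than that of the carbonic anhydrase-like gene for 32.5%. Scaling by the median ratio of genes added 0.32 to every difference, which took D1 to 1.14 and CP47 to 1.24, past 1. With it, 2190 of all genes were called higher and 1122 lower, against 1789 higher and 1595 lower with the deposited values.

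**Figure D2:**
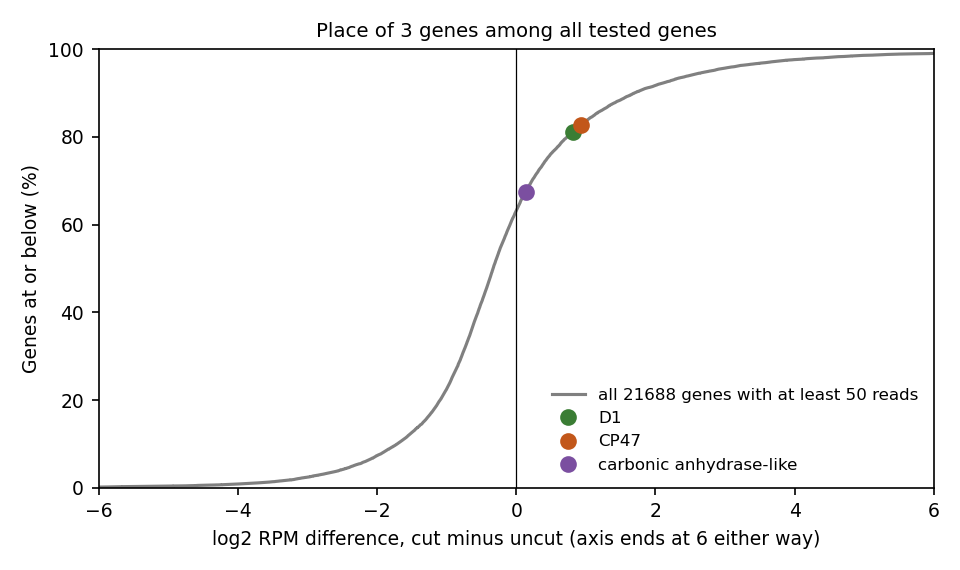
Cumulative share (%) of the 21688 tested genes at or below each log2 RPM difference, cut minus uncut (line), with 3 genes marked (points). D1 and CP47 lie where 81.2% and 82.7% of genes had a smaller difference, and the carbonic anhydrase-like gene lies at 67.5%.

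Ratios between genes of the same library do not depend on its scaling. D1 had 18.4 times the reads of the carbonic anhydrase-like gene in the cut library and 11.4 times in the uncut library. The difference of D1 thus exceeded that of the carbonic anhydrase-like gene by 0.68 on the log2 scale (0.60 to 0.77). The difference of CP47 exceeded that of the same gene by 0.79 (0.68 to 0.90), with 1.54 times its reads in the cut and 0.888 times its reads in the uncut library. Both photosystem II genes differed from each other by far less, 0.11 (0.03 to 0.19). The S7 difference could not be told from that of D1 (-0.65, interval -2.0 to 0.69) or of the carbonic anhydrase-like gene (0.03, interval -1.32 to 1.38).

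Levels of different genes were compared per kb of the deposited span. D1 was the highest, with 149 RPM per kb in the cut explants and 84.7 RPM per kb in the intact plantlets. The carbonic anhydrase-like gene followed, with 44.2 (42.4 to 46.0) RPM per kb in the cut explants and 40.2 (38.6 to 41.8) RPM per kb in the intact plantlets. CP47 came next, with 38.3 (37.1 to 39.5) RPM per kb in the cut explants and 20.1 (19.3 to 21.0) RPM per kb in the intact plantlets, and S7 last, with 0.821 and 0.732 RPM per kb. Neighbours in this order had intervals that lay apart in both libraries. By this level, D1 ranked 855 of 40430 features in the cut library and 1394 in the uncut library, and CP47 ranked 3038 and 5296 in the same order of libraries. The ranks use the deposited spans, and levels per kb depend on the length, most of all for D1. With the length of plastid psbA, D1 had 1241 RPM per kb in the cut and 703 RPM per kb in the uncut library. With the length of plastid psbB, CP47 had 72.1 RPM per kb in the cut and 38.0 (36.4 to 39.6) in the uncut library. This length, like that of psbA, was chosen after seeing the data. CP47 then passed above the carbonic anhydrase-like gene, kept at its deposited span, in the cut library. In the uncut library the intervals of both genes overlapped, so their order there was not settled.

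The study's annotation names 6 genes of the table as chloroplast-encoded: D1, CP47, S7, photosystem II protein D2 (PGSC0003DMG400017258, chromosome 9), the Rubisco large subunit (PGSC0003DMG400033037, chromosome 6) and a second S7 feature (PGSC0003DMG400011820, chromosome 6). All 6 were listed by the study from the comparison that used the cut library. D2 had 551 reads in the cut and 282 reads in the uncut library, 16.3 RPM (14.9 to 17.7) against 7.43 RPM (6.59 to 8.35), a log2 difference of 1.13 (0.92 to 1.34). The D2 difference exceeded that of D1 by 0.31 (0.10 to 0.53), and that of CP47 by 0.21 (-0.02 to 0.43), an interval that includes 0. The Rubisco large subunit had 15192 reads in the cut and 11802 reads in the uncut library, or 449 RPM against 311 RPM, a log2 difference of 0.53 (0.49 to 0.56), lower than that of D1 by 0.29 (-0.33 to -0.25 for Rubisco minus D1). The 3 features named for photosystem II proteins therefore had RPM differences of 0.82 to 1.13, above that of the feature named for the Rubisco subunit.

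The 2 features named S7 differed from each other, though the first had only 11 reads per library and lay below the read minimum. The second S7 feature had 17 reads in the cut library and 86 reads in the uncut library, 0.502 RPM (0.293 to 0.804) against 2.27 RPM (1.81 to 2.80). Its difference of -2.17 (-3.02 to -1.41) made it the 1 gene of the 6 called lower. The difference of the first S7 feature exceeded it by 2.34 (0.74 to 3.92). The call was lost under the median-ratio scaling and with a pseudocount of 0.1 or 1. Of the 6 genes, 5 had enough reads, 0 were called higher, and 4 of the 5 lay above 0, with a median of 0.82 against -0.33 over all genes. The 6 genes were listed through the cut library, so this is not a comparison with a neutral reference. The summed reads of the 6 genes made up 0.107% of the reads on genes in the cut library and 0.0635% in the uncut library, of which D1 alone supplied 69.6% in the cut and 66.3% in the uncut library. Without D1, the sum was still higher in the cut library, by 0.60 (0.57 to 0.64) on the log2 scale. Most of that sum was the Rubisco large subunit, with 15192 of 19499 reads in the cut and 11802 of 14381 reads in the uncut library.

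The nuclear genes of light harvesting were compared next. The chlorophyll a-b binding proteins surround the photosystems and pass them light energy, and the study's annotation names 7 of their genes. The sum of the 7 genes was 119.6 RPM in the cut explants and 205 RPM in the intact plantlets, a log2 difference of -0.78 (-0.83 to -0.72). Of the 7, 6 lay below 0 and 1 above, with a median difference of -0.89, and 1 was called lower and 0 higher. Over all genes 63.2% lay below 0, the median was -0.33, and 7.35% were called lower, so that the counts of these 7 genes were not far from those shares. Chlorophyll a-b binding protein 50 (PGSC0003DMG400013416) fell to 175 reads in the cut library, against 1052 reads in the uncut library, a difference of -2.42 (-2.66 to -2.19). The gene with the most reads, chlorophyll a/b binding protein (PGSC0003DMG400008301), had 1672 reads in the cut and 3123 reads in the uncut library, a difference of -0.74 (-0.82 to -0.65). The features named chlorophyll a-b binding protein 3C differed by -0.89 (PGSC0003DMG400008299) and -1.34 (PGSC0003DMG400008300), those named 40 and 40-like by -0.63 (PGSC0003DMG400013415) and -1.16 (PGSC0003DMG400013414). These 6 genes lie close together in 2 groups of 3, on chromosomes 2 and 3, and reads shared between such similar genes would not align uniquely. Chlorophyll a-b binding protein 4 (PGSC0003DMG400004301), on chromosome 12, was the exception, with 31.5 RPM in the cut explants and 27.2 RPM in the intact plantlets, a difference of 0.21 (0.08 to 0.33). All scalings tried left 6 of the 7 below 0 and 4 of the 5 chloroplast-named genes above 0. The scalings added between -0.0011 and 0.32 to every difference, too little to change any of these signs.

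**Figure D3:**
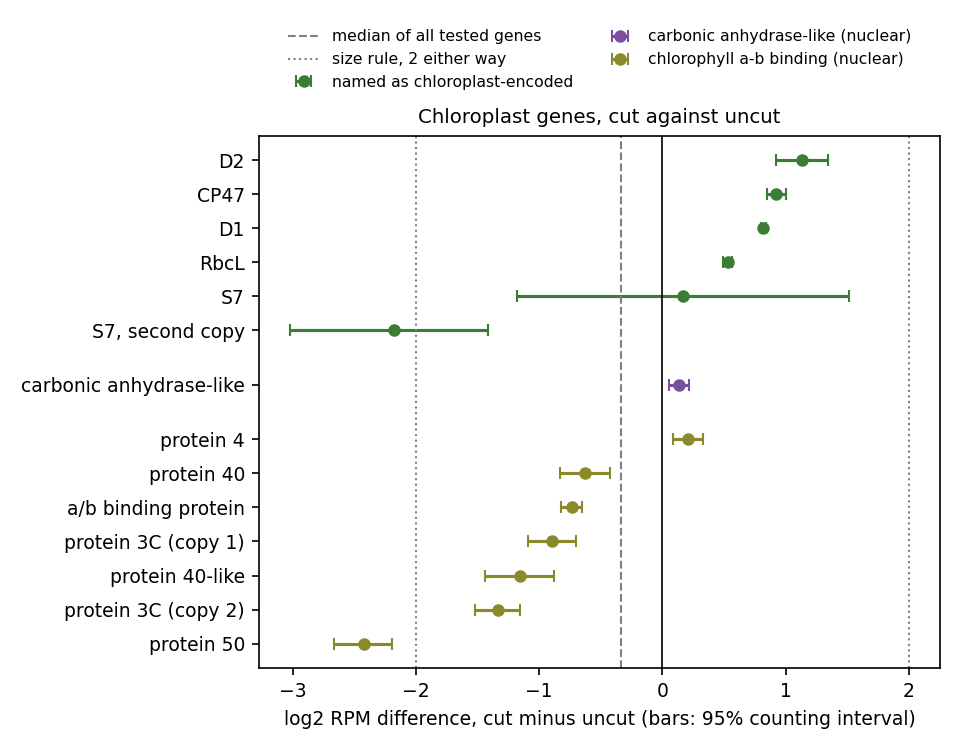
The log2 RPM difference, cut minus uncut, of the 6 genes named as chloroplast-encoded, of the carbonic anhydrase-like gene and of 7 nuclear chlorophyll a-b binding genes, with 95% counting intervals. D1, CP47, D2 and the Rubisco large subunit (RbcL) lie between 0.53 and 1.13, and 6 of the 7 chlorophyll a-b binding genes lie between -2.42 and -0.63.

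Carbonic anhydrase thus lay between the photosystem II genes named as chloroplast-encoded and most of the nuclear light-harvesting genes. Another 11 genes of the annotation are named chloroplastic, that is, with a product in the chloroplast. Their median difference was 0.22, with 6 above and 5 below 0, and 1 was called higher and 0 lower, where 8.25% of all genes were called higher. The called gene was beta-amylase 1 (PGSC0003DMG400001549), which degrades starch, with 29168 reads in the cut and 2388 reads in the uncut library, a difference of 3.78 (3.72 to 3.84). It was followed by threonine dehydratase (PGSC0003DMG400012987), of isoleucine synthesis, with a difference of 1.64 (1.41 to 1.88). The lowest values were those of beta-amylase 3-like (PGSC0003DMG402020509), -1.47 (-1.58 to -1.35), and of cationic amino acid transporter 7-like (PGSC0003DMG400007597), -1.45 (-1.57 to -1.32).

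Genes whose midpoint lay within 50 kb were examined around each of the 4 genes. D1 stood almost alone, with 2 other features in this window and 0 of them with 50 reads. Around S7 there were 16 features, of which 7 had at least 50 reads. All 7 had a positive difference, from 0.26 to 1.15 with a median of 0.94, and lay within 8.55 kb of S7. The 3 of them with the most reads lay on both sides of S7, within 3.11 kb, at 134.6 to 303 RPM in the cut explants and 60.5 to 144 RPM in the intact plantlets, with log2 differences of 1.07 to 1.15. Per kb of span, these 3 had 85.5 to 192 RPM in the cut and 39.7 to 86.2 RPM in the uncut library, where S7 itself had under 1. The largest difference was that of PGSC0003DMG400041917, with 4558 reads in the cut and 2296 reads in the uncut library (1.15, interval 1.08 to 1.23). The sources used here do not name these features, some of them overlap each other on opposite strands, and whether the counting used strand is not given.

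Around CP47, 3 of 10 features had at least 50 reads. Their differences ran from -0.10 for PGSC0003DMG400005303 (-0.45 to 0.25), 18.2 kb away, to 0.53 for PGSC0003DMG400002472 (0.22 to 0.84), 8.56 kb away. These neighbours had at most 201 reads in the cut and 160 reads in the uncut library, against 3728 and 2200 for CP47. The carbonic anhydrase-like gene had 1 such neighbour among 4 features, PGSC0003DMG400006955, with a difference of -0.37 (-0.68 to -0.07). Over the 11 neighbours together, the median was 0.71, and 0 were called higher or lower. Of these 11, 7 were the neighbours of S7, so the pooled median mostly describes that place. Over the 2713 genes of chromosome 1 with enough reads, the median difference was -0.26, close to that of all genes.

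**Figure D4:**
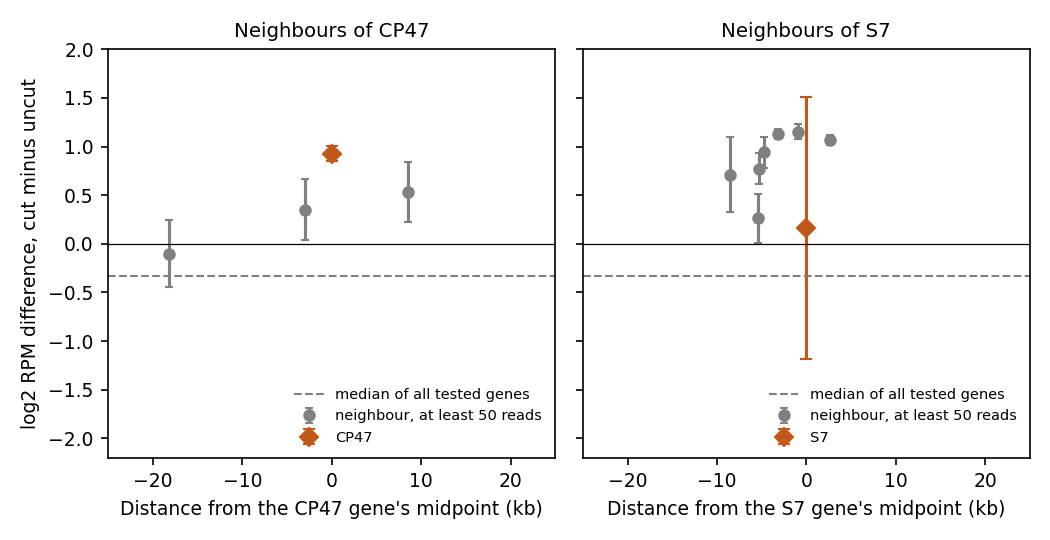
The log2 RPM difference, cut minus uncut, of features with at least 50 reads (grey) by distance (kb) from the midpoint of CP47 (left) and S7 (right), with 95% counting intervals. All 7 neighbours of S7 lie above 0, while S7 itself, with 11 reads per library, has an interval from -1.18 to 1.51.

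Genes linked to particular organs also differed between the libraries. Of 6 root-linked genes named in the annotation, 3 were called lower in the cut explants and 0 higher, where 7.35% of all genes were called lower and 8.25% higher. CASP-like protein 1 (PGSC0003DMG400022659) had 11 reads in the cut and 915 reads in the uncut library, a difference of -6.21 (-7.22 to -5.37). Casparian strip integrity factor 2-like (PGSC0003DMG400030948) differed by -3.67 and a peroxidase-like gene (PGSC0003DMG400003654) by -2.22. The other 3 had small positive differences, 0.17 for CASP-like protein 4D1 (PGSC0003DMG400027047), 0.30 for NRT1/PTR family 7.3-like (PGSC0003DMG400024120) and 0.59 for the metal transporter Nramp5 (PGSC0003DMG400027964). The summed level of the 6 genes was 590 RPM in the cut and 812 RPM in the uncut library. Among 3 leaf-linked genes, 0 were called. FAMA (PGSC0003DMG400015760) and a FAMA-like gene (PGSC0003DMG400029634), regulators of stomatal guard cells in Arabidopsis, differed by 1.59 (1.28 to 1.90) and 1.26 (1.09 to 1.44), and axial regulator YABBY 1 (PGSC0003DMG400025969) by -1.35 (-1.55 to -1.16). None of these 9 genes was at 0 reads in a library. The part of organ content in the D1 and CP47 differences was not tested.

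Among 341 genes of the annotation with at least 50 reads, the pair of log2 RPM values most like that of each of the 4 genes was found by distance over the 2 libraries. For the carbonic anhydrase-like gene it was probable plastid-lipid-associated protein 14 (PGSC0003DMG400009120), at a distance of 0.13 and with a difference of 0.22, and then an uncharacterized gene (PGSC0003DMG400003805), at 0.22. For CP47 the nearest were a gene for a hypothetical protein (PGSC0003DMG400041108), at 0.44, and the root-linked NRT1/PTR family 7.3-like (PGSC0003DMG400024120), at 0.45. The differences of these 2 genes, 0.63 and 0.30, were smaller than the 0.93 of CP47. No gene was as close to D1, for which the nearest were a gene named TAR1 (PGSC0003DMG400046276), at 0.89, and a Kunitz-type protease inhibitor (PGSC0003DMG400009513), at 1.14. They had differences of 0.35 (TAR1) and 1.47 (the inhibitor), against 0.82 for D1. S7 lay below the read minimum that the compared genes had to pass, so genes at its level were left out. The nearest of those compared lay at 2.12 (zeatin O-glucosyltransferase-like, PGSC0003DMG400035573) and 2.27 (wall-associated receptor kinase 3-like, PGSC0003DMG400028372). These distances are set by that minimum and do not show a likeness to S7.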

How the data were processed

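Total RNA was enriched for mRNA with oligo(dT) beads, which favour polyadenylated RNA, whereas plastid transcripts mostly lack long poly(A) tails. Per the labels and the study's methods, the authors trimmed reads with Trim Galore 0.5.0, removed 10 bases at the 5′ end, aligned pairs to SolTub 3.0 with HISAT2 2.1.0 and counted in SeqMonk the exonic reads of mapping quality 60 per gene. The deposited values are log2 RPM, relative to all reads of a sample. A read that fits several places equally well is lost at this mapping quality, which bears on plastid-type sequences with many copies.

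Here, reads per gene were recovered from the steps between low values: 100% of 16646 tested values of the cut and of 14627 of the uncut library were whole within 0.05 read, and genes without reads stood at 0.9 read. Single values have exact Poisson intervals, ratios have Clopper-Pearson intervals, and differences between genes have exact conditional intervals (normal for genes over 1000 reads). A count of 0 allows 3 reads, 0.0886 RPM in the cut and 0.0790 RPM in the uncut library. With 1 library per condition, genes were called by size alone, at 50 or more reads in all and a log2 difference of 2 or more, and lists were described by counts and medians.

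The genes and lists were chosen with earlier results of these data known, and gene names come from an annotation that covers the genes the study listed as responsive to ultrasound. Named were all genes of the lists named as chloroplast-encoded or mitochondrial and of the chlorophyll a-b binding list, the 2 largest rises and falls among other chloroplastic genes, the extreme neighbours, and the 2 genes of the study's annotation nearest to each of the 4 genes. The organ markers were named because they bear on the comparison. Of 40430 identifiers, 0 matched the RefSeq table, which was used for plastid gene lengths only and to look up the carbonic anhydrase protein match. Alternatives were other scalings, pseudocounts, read minima, sizes and windows. The procedure was tested on simulated reads. The scripts ran under Python 3.11.15 with pandas 2.3.3, numpy 2.4.6 and scipy 1.17.1, and the plots were made with matplotlib 3.10.9.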

Additional observations from a re-analysis of the deposited data

How the results depend on the processing

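The median-ratio scaling added 0.32 to every difference and the upper-quartile scaling 0.15. Under the median ratio the difference was 1.14 for D1, 1.24 for CP47 and 0.45 for the carbonic anhydrase-like gene, and the list medians were 1.14 (named as chloroplast-encoded), -0.57 (chlorophyll a-b binding) and 0.54 (other chloroplastic). Under the upper quartile the values were 0.97 for D1, 1.08 for CP47 and 0.29 for the carbonic anhydrase-like gene, with medians of 0.97 (named as chloroplast-encoded) and 0.38 (other chloroplastic). The 1 gene named as chloroplast-encoded and called lower became 0 under the median ratio, with log2(RPM + 1), with log2(RPM + 0.1), with a minimum of 200 reads and at a difference of 3. The median of the genes named as chloroplast-encoded was 0.67 with a minimum of 10 reads or none, which admits S7, and 0.87 with a minimum of 200 reads. At a difference of 1, 1 gene named as chloroplast-encoded was higher, 3 chlorophyll a-b binding genes were lower, 3 other chloroplastic genes were higher and 3 lower, and 3 neighbours were higher. At a difference of 3, 0 chlorophyll a-b binding genes were lower. With no read minimum the neighbours had a median of 0.17, with 1 higher and 2 lower, and the 3 features so called had 5 to 22 reads over both libraries. A minimum of 10 reads gave 1 lower neighbour, and a window of 100 kb gave 2 higher ones and a median of 0.35. With the length of plastid psbB, CP47 had 1.63 times the level per kb of the carbonic anhydrase-like gene in the cut library and 0.944 times in the uncut library, against 0.867 and 0.501 with the deposited spans. No difference of the 4 genes changed sign under the scalings and pseudocounts tried. With each setting varied alone, 0 of the 4 genes were called. Scalings were not combined with a difference of 1, which D1 and CP47 exceeded under the median ratio and CP47 under the upper quartile. The limit set by depth is that of S7, with 11 reads per library. No paired analysis was possible because only 1 cut and 1 uncut library were analysed.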

Other observations

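The study's annotation also names 2 features of nuclear chromosomes as mitochondrial, and both had lower values in the cut library, as did 63.2% of all genes with enough reads, whose median difference was -0.33. ATP synthase F0 subunit 9 (PGSC0003DMG400002202, chromosome 8), part of the proton channel of the mitochondrial ATP synthase, had 2925 reads in the cut and 6334 reads in the uncut library, or 86.4 RPM against 167 RPM, a log2 difference of -0.95 (-1.01 to -0.89). The open reading frame orf185 (PGSC0003DMG400013204, chromosome 1) had 4889 reads in the cut and 7633 reads in the uncut library, or 144 RPM against 201 RPM, a difference of -0.48 (-0.53 to -0.43). Neither was called by the size rule, and 56.8% of all genes had a larger difference than orf185. Both together had 231 RPM in the cut explants and 368 RPM in the intact plantlets, a difference of -0.67 (-0.71 to -0.63). The 6 genes named as chloroplast-encoded together had 1894 RPM in the cut explants and 1126 RPM in the intact plantlets. The sum of these 6 genes differed by 0.75 (0.73 to 0.77). Most of its reads came from D1, while the second S7 feature went the other way (-2.17). The 6 genes were listed through the cut library. The intervals cover counting error only, and the spread between replicates, which were pooled, is not known.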
